A study of Sus scrofa with 9 samples.

Results

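GJA1, KCNJ5 and ATP1B1 are 3 of the 3890 genes that could be named in the deposited table of nascent transcription in pig myocardium. They encode a gap junction protein, a potassium channel subunit and a subunit of the sodium pump. The rows were found by the RefSeq accession of each symbol, and where a gene had several rows the row with the longest annotated span stood for it. All 3 genes passed the filter on low values. The comparison asks how far the transcription of these genes differed between the infarct, its border and healthy myocardium of the same hearts.

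Female farm pigs had an embolization coil placed in the distal left anterior descending coronary artery under general anesthesia, and myocardium was taken 24 hours later. The 3 groups are ischemic, border zone and healthy myocardium, with 1 library per group from each of pigs 1 to 3, so that replicate numbers are pig numbers. All 9 libraries, the healthy ones included, carry the same treatment in the labels. How the zones were delimited, where the healthy sample lay, and the pigs' age and breed are not stated in the sources used. Nascent RNA was measured by GRO-seq, in which polymerases already engaged on a gene extend their RNA by a short labelled stretch in isolated nuclei, so that a value reports ongoing transcription rather than stored messenger RNA. The nuclei came from collagenase-treated, filtered tissue, so nuclei lost at this step were not measured.

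Heart muscle cells are joined end to end at intercalated discs, where gap junction channels pass the depolarising current from cell to cell. GJA1 encodes connexin 43, the main gap junction protein of the working ventricle, which fibroblasts, endothelium and smooth muscle also make. KCNJ5 encodes Kir3.4, an inward rectifier subunit that forms, with KCNJ3, the potassium channel opened by G protein beta-gamma subunits after muscarinic or adenosine receptor activation, a current best known from the atria and the nodes. ATP1B1 encodes the beta subunit of the sodium pump, which the catalytic alpha subunit needs to fold and to reach the cell surface. The pump restores the sodium and potassium gradients on which every action potential draws.

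Values are RPKM, reads scaled by the annotated span, introns included, and by the library total. Library totals were 883656 to 2134087 reads in ischemic, 2187977 to 7005976 in border zone and 2730083 to 6531658 in healthy libraries, so the ischemic libraries give the least precise values. Of 27 markers of heart muscle cells in the list used here, 16 are in the table, and CKM, muscle creatine kinase, was listed at 0 in all libraries. The summed RPKM of the 16 was 147 to 358 in ischemic, 285 to 435 in border zone and 529 to 852 in healthy libraries. Of the 15 markers tested, 11 were called lower in ischemic than in healthy myocardium, against 9.1% of all positions tested. Ischemic replicate 2 stood apart within its group. The median of the 15 markers, taken on the log2 scale and converted back, was 14.6 RPKM there, against 4.06 and 3.15 RPKM in ischemic replicates 1 and 3. Values without this library are given for the 3 members, and for other genes where leaving it out changed a call.

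GJA1 was transcribed less in ischemic than in healthy myocardium. Its row (NM_001244212, susScr3 chromosome 1 from 45543880 to 45557193, minus strand) spans 13313 bp with 3078 bp of exon. GJA1 had 5.77, 9.15 and 7.40 RPKM in ischemic replicates 1 to 3, 12.4, 17.8 and 10.95 RPKM in border zone replicates and 24.6, 25.3 and 20.1 RPKM in healthy replicates. The highest library of each zone lay under the lowest library of the next healthier one, so no groups overlapped. Reads per library numbered 87 to 164 in ischemic, 319 to 1664 in border zone and 895 to 1747 in healthy myocardium. GJA1 averaged 7.44 ± 1.69 RPKM in ischemic and 23.3 ± 2.83 RPKM in healthy myocardium (SD, n = 3 each), a log2 fold change of -1.65 ± 0.28 (SE, 95% interval -2.29 to -1.02, adjusted p = 0.00452 in limma). Fold changes are differences of mean log2(RPKM + 0.1), and the threshold was an adjusted p of 0.05 over all 2384 positions tested. GJA1 fell 3.15-fold on this scale, and its log2 fold change was -1.81 without ischemic replicate 2. In bulk tissue, fewer cells of a type and less transcription per cell cannot be told apart.

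KCNJ5 showed the lowest levels of the 3 genes, and was also transcribed less in ischemic than in healthy myocardium. Its row (NM_214225, chromosome 9 from 61927955 to 61952450, plus strand) spans 24495 bp with 1993 bp of exon. KCNJ5 had 0.0956, 0.465 and 0.139 RPKM in ischemic replicates 1 to 3, 0.805, 1.12 and 0.205 RPKM in border zone replicates and 1.85, 2.11 and 1.75 RPKM in healthy replicates. The ischemic values rest on only 5, 13 and 3 reads, against 124 to 280 reads in healthy libraries. Their exact 95% counting intervals were 0.0311 to 0.223, 0.248 to 0.795 and 0.0286 to 0.405 RPKM, all under the lowest bound of a healthy library, 1.54 RPKM. These intervals cover counting error only, and they treat reads as independent molecules, which they may not be. In that case the intervals are too narrow. KCNJ5 averaged 0.233 ± 0.202 RPKM in ischemic and 1.90 ± 0.185 RPKM in healthy myocardium (SD, n = 3 each), and fell 6.71-fold (log2 fold change -2.75 ± 0.57, 95% interval -4.06 to -1.44, limma adjusted p = 0.0111). The size of this fall depends on the amount added before the logarithm, with a log2 fold change of -1.25 at 1 RPKM (adjusted p = 0.00558) and -3.29 at 0.01 RPKM (adjusted p = 0.0145). The order of the members by fold change turns with it, since at 1 RPKM GJA1 had -1.54 and ATP1B1 -1.68, both larger falls than that of KCNJ5, and at 0.1 RPKM both were smaller. Without ischemic replicate 2, which holds 13 of the 21 ischemic reads, the log2 fold change was -3.21 (adjusted p = 0.00606).

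ATP1B1 gave the most even values within groups. Its longest row (NM_001001542_1, chromosome 4 from 89530583 to 89550423, minus strand) spans 19840 bp with 1004 bp of exon. ATP1B1 had 3.14, 2.96 and 2.68 RPKM in ischemic replicates 1 to 3, 7.64, 10.1 and 6.91 RPKM in border zone replicates and 11.7, 11.4 and 11.4 RPKM in healthy replicates. No groups overlapped, and the counting intervals of the 3 healthy libraries overlapped each other, as did those of the 3 ischemic libraries. Each of these intervals was wider than the range of the 3 values in its zone, such as 10.8 to 12.7 RPKM in healthy and 2.63 to 3.72 RPKM in ischemic replicate 1. Values this even therefore need not recur in other libraries. The coefficient of variation was 7.92% in ischemic, 20.6% in border zone and 1.46% in healthy libraries, while that of GJA1 was 22.7%, 26.5% and 12.1% in the same zones and that of KCNJ5 was 86.7%, 65.4% and 9.70%. ATP1B1 averaged 2.93 ± 0.232 RPKM in ischemic and 11.5 ± 0.168 RPKM in healthy myocardium (SD, n = 3 each), and fell 3.85-fold (log2 fold change -1.94 ± 0.21, 95% interval -2.43 to -1.45, limma adjusted p = 0.00108). Without ischemic replicate 2 the log2 fold change was -1.95.

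All 3 genes were called lower in ischemic myocardium, where 9.1% of the 2384 positions were called lower and 18.5% higher. The libraries of the 2 groups did not overlap for any of the 3, as for 14.9% of all positions in this direction. These calls held without any single library, with pig as a block and under each other setting in which the gene was tested, the exception being a second ATP1B1 row described below. Over all positions the median log2 fold change was 0.21, and scaling the libraries to the same median made the falls larger, at -1.88 for GJA1, -2.93 for KCNJ5 and -2.17 for ATP1B1.

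**Figure D1:**
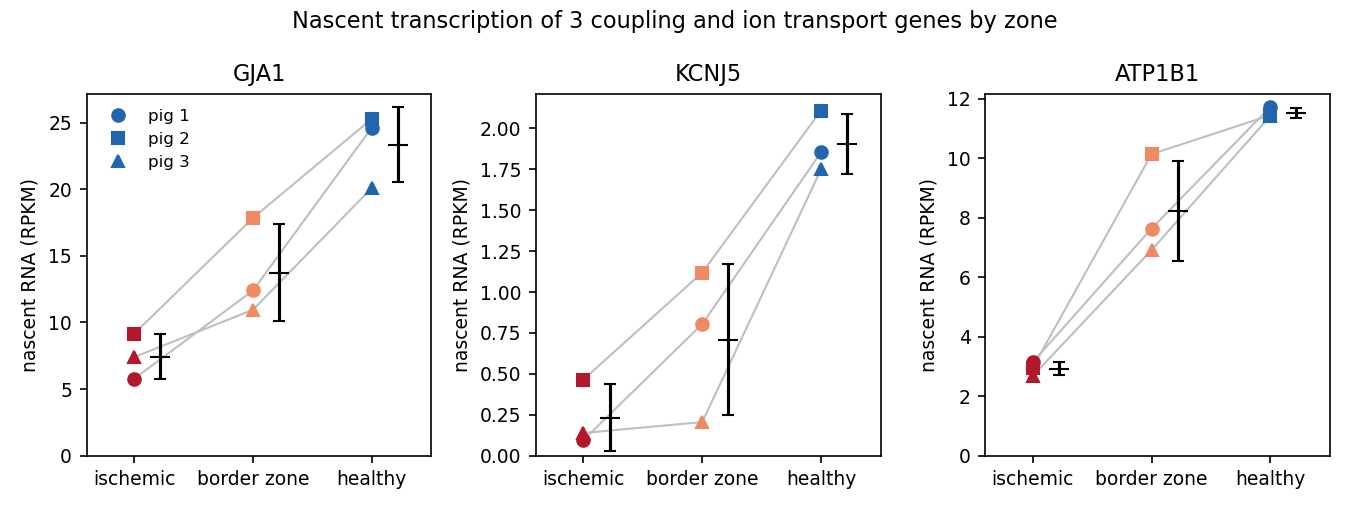
RPKM of GJA1, KCNJ5 and ATP1B1 in each library, by zone, with the libraries of a pig joined by a grey line and the mean ± SD (n = 3) beside the points. Each line is lowest in ischemic and highest in healthy myocardium, and the 3 healthy ATP1B1 values lie within 11.4 to 11.7 RPKM.

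The order of the zones was the same in every pig for all 3 genes, with ischemic under border zone and border zone under healthy. Of all positions tested, 7.47% had this order in every pig. Ischemic GJA1 was 23.4%, 36.2% and 36.8% of the healthy level in pigs 1, 2 and 3, and ischemic KCNJ5 was 5.16%, 22.1% and 7.92%. Pig 1 had the lowest share and pig 2 the highest share for KCNJ5. Ischemic ATP1B1 was 26.8%, 25.9% and 23.5% of the healthy level, nearly the same share in each pig.

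In the border zone, all 3 genes had lower levels than in healthy myocardium in each of the 3 pigs, but 0 of the 3 passed the threshold in limma. At an unadjusted p under 0.05, 3 of 3 were lower, against 3.57% of positions. GJA1 averaged 13.7 ± 3.63 RPKM in border zone and 23.3 ± 2.83 RPKM in healthy myocardium (log2 fold change -0.78 ± 0.28, 95% interval -1.42 to -0.15, limma adjusted p = 0.154). KCNJ5 averaged 0.710 ± 0.464 and 1.90 ± 0.185 RPKM in the same zones (-1.52 ± 0.57, 95% interval -2.83 to -0.21, adjusted p = 0.177), and border zone replicate 3, with 11 reads, was its lowest library. Without that library KCNJ5 had a log2 fold change of -0.93. ATP1B1 averaged 8.23 ± 1.69 and 11.5 ± 0.168 RPKM (-0.50 ± 0.21, 95% interval -0.99 to -0.01, adjusted p = 0.223). Each gene's border zone libraries lay under all its healthy libraries, as did those of 6.71% of positions. Only 0.21% of positions were called lower in this comparison, and 5.79% higher. With limma-voom on the reads recovered from the RPKM values, GJA1 (adjusted p = 0.0347) and KCNJ5 (adjusted p = 0.0326) passed and ATP1B1 did not (adjusted p = 0.113).

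The level in the border zone differed between pigs. Border zone replicate 2 was the highest of its group for all 3 genes, with ATP1B1 at 88.6% of the healthy level in pig 2 against 65.1% and 60.5% in pigs 1 and 3. GJA1 was at 70.6% of the healthy level in pig 2, 50.3% in pig 1 and 54.5% in pig 3. The marker median of heart muscle cells was also highest in border zone replicate 2, at 22.1 RPKM, against 11.6 and 13.5 RPKM in border zone replicates 1 and 3. Its part in these values was not tested.

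Between ischemic myocardium and the border zone, ATP1B1 was the member that passed. It averaged 2.93 ± 0.232 RPKM in ischemic and 8.23 ± 1.69 RPKM in border zone libraries, a 2.72-fold fall (log2 fold change -1.44 ± 0.21, limma adjusted p = 0.0318). In this comparison 0.965% of positions were called lower and 0.168% higher. Leaving out a library ended the call in 7 of 9 cases. The adjusted p became 0.0592, 0.0549 and 0.0631 when healthy replicate 1, 2 or 3 was left out, 0.0846, 0.0906 and 0.0673 when border zone replicate 1, 2 or 3 was, and 0.0949 when ischemic replicate 3 was. GJA1 had -0.87 ± 0.28 (95% interval -1.50 to -0.23, adjusted p = 0.188) with no overlap between the libraries, as for 11.5% of positions, and KCNJ5 had -1.22 ± 0.57 (95% interval -2.53 to 0.08, adjusted p = 0.355) with overlapping libraries. The 3 comparisons share libraries, so their values are not independent of each other.

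Per unit of span, GJA1 was the most and KCNJ5 the least transcribed member in every library. By mean RPKM, GJA1 ranked 189th of 3890 genes in ischemic, 76th in border zone and 30th in healthy myocardium. ATP1B1 ranked 494th, 145th and 80th in the same zones, and KCNJ5 2364th, 1748th and 632nd. Ratios between genes of the same library were set side by side to see whether the members fell together, over 4 comparisons with the smallest exact p of 0.1 that 3 against 3 libraries allow. The ratio of ATP1B1 to GJA1 was 0.552, 0.331 and 0.371 in ischemic and 0.478, 0.455 and 0.571 in healthy replicates (exact permutation p = 0.3, adjusted 0.3, 2-sided). In border zone replicates it was 0.619, 0.571 and 0.634 (exact permutation p = 0.2 against healthy, adjusted 0.267). The ratio of KCNJ5 to GJA1 was 0.0333, 0.0611 and 0.0318 in ischemic and 0.0790, 0.0870 and 0.0916 in healthy replicates, with no overlap (exact permutation p = 0.1, adjusted 0.2). Ratios are of RPKM + 0.1, and with 1 RPKM added the last difference changed sign, with a log2 value of 0.29 in place of -1.09, so that a steeper fall of KCNJ5 than of GJA1 cannot be read from it.

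ATP1B4, a beta family member by name and best known from muscle, was listed with the pump genes, and a role in the pump is not implied here. It had 2.27, 1.93 and 0.255 RPKM in ischemic and 3.35, 2.67 and 2.48 RPKM in healthy replicates and did not pass (-1.28 ± 0.68, limma adjusted p = 0.194). Its ischemic libraries all lay under the healthy ones, and ischemic replicate 3 was the lowest.

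The wider field was read from 7 lists of gap junction, intercalated disc, potassium channel, pump, exchanger, other channel, and G protein partner genes, 240 genes in all. The table holds 47 of them, 39 had a read in some library and 19 passed the filter. Of the 19, 6 fell and 2 rose in ischemic against healthy myocardium, where 27.6% of all positions were called, and 11 did not pass. The 3 members are among the 6. The median log2 fold change was -0.82 over the 19 genes and 0.21 over all positions. The count of 8 became 4 when a mean of 2 RPKM was required, 5 without healthy replicate 3, and 10 (8 lower) without ischemic replicate 2. In ischemic against border zone myocardium ATP1B1 was the only one of the 19 called, where 1.13% of positions were, and the median of the 19 was -0.36. Without ischemic replicate 2, CAV3 was called as well (adjusted p = 0.0116), on a row of 343 bp with 2 ischemic and 14 border zone reads in the full set.

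Besides the members, a channel subunit fell in ischemic myocardium. CACNA2D1, the alpha-2/delta-1 subunit of voltage-gated calcium channels, had 0.211, 0.408 and 0.293 RPKM in ischemic and 0.786, 1.05 and 1.29 RPKM in healthy replicates. Its ischemic and healthy libraries did not overlap. It fell with -1.50 ± 0.32 (limma adjusted p = 0.013), and had an adjusted p of 0.0556 without healthy replicate 3 and 0.082 with quantile normalization. SLC12A4, a potassium-chloride cotransporter, did not pass (-0.02 ± 0.29, adjusted p = 0.957).

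On the list of receptor and G protein partners of KCNJ5, 4 genes were tested. In ischemic against healthy myocardium 2 of them passed, where 18.5% of positions were called higher. Both were regulators of G protein signalling, which speed the switching-off of G proteins, and both rose. A link of these genes to KCNJ5 was not tested. RGS2 had 24.1, 22.4 and 29.6 RPKM in ischemic, 16.8, 15.6 and 39.4 RPKM in border zone and 4.06, 2.61 and 8.53 RPKM in healthy replicates. All ischemic and border zone values lay over all healthy ones, as for 28.4% of positions in ischemic and 25.7% in border zone myocardium. It rose 5.50-fold in ischemic myocardium (log2 fold change 2.46 ± 0.49, limma adjusted p = 0.00967) and 4.77-fold in the border zone (2.25 ± 0.49, adjusted p = 0.0375). The border zone call of RGS2, the only one among the listed genes where 6.0% of positions were called, was lost when any of healthy replicates 1 and 2, border zone replicates 1 to 3 and ischemic replicates 1 and 3 was left out, with adjusted p up to 0.14. That call was also lost with median scaling (adjusted p = 0.0774) and with quantile normalization (adjusted p = 0.0618). The same held with 1 RPKM added, without a filter and in the fit of border zone and healthy libraries alone. RGS4 had 2.04, 2.21 and 1.11 RPKM in ischemic and 1.18, 0.573 and 0.537 RPKM in healthy replicates (1.15 ± 0.35, adjusted p = 0.0403), with overlapping libraries. Of the libraries left out one at a time, its call held only without healthy replicate 1 or ischemic replicate 3, and the adjusted p was 0.093 without ischemic replicate 2 and reached 0.124 when another library was left out. The RGS4 call was also lost without a filter (adjusted p = 0.060) and with median scaling (adjusted p = 0.0692). The same held with quantile normalization (adjusted p = 0.0821) and in the fit of ischemic and healthy libraries alone (adjusted p = 0.0879). The inhibitory G protein subunits GNAI2 (1.05 ± 0.48, adjusted p = 0.134) and GNAI3 (0.04 ± 0.29, adjusted p = 0.935) did not pass. Without ischemic replicate 2, GNAI2 was called higher (1.63 ± 0.30, adjusted p = 0.00807). CHRM2, the muscarinic receptor of the heart, is listed over a 79 bp span with 2 reads in all, and ADORA1, an adenosine receptor, had 5 reads in ischemic, 77 in border zone and 49 in healthy myocardium, so neither could be tested.

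On the intercalated disc list, which here includes the caveolin gene CAV3, 0 of the 5 genes tested passed in limma in ischemic against healthy myocardium, with a median log2 fold change of -0.82. At an unadjusted p under 0.05, 2 of the 5 were lower, against 13.3% of positions. This count of 0 does not hold under every setting, as 3 of the 5 were called lower under at least 1 other. CTNNB1, beta-catenin, had 3.25, 3.26 and 2.85 RPKM in ischemic and 3.55, 3.84 and 4.25 RPKM in healthy replicates (-0.30 ± 0.19, limma adjusted p = 0.275). VCL, vinculin, had -0.82 ± 0.31 (adjusted p = 0.0828), and an adjusted p of 0.0445 with pig as a block and 0.0356 by limma-voom. XIRP1, an actin-binding protein of the disc, had -1.13 ± 0.45 (adjusted p = 0.0954), and an adjusted p of 0.0477 without ischemic replicate 2, 0.0161 by limma-voom and 0.0412 with quantile normalization. JUP, plakoglobin, had -0.31 ± 0.30 (adjusted p = 0.474). CAV3, caveolin 3, had 0, 5.11 and 0 RPKM in ischemic and 3.20, 0.851 and 1.34 RPKM in healthy replicates (-2.15 ± 1.42, adjusted p = 0.297). Its row spans 343 bp and held only 2 reads in ischemic, 14 in border zone and 7 in healthy libraries. Ischemic replicate 2 was its only ischemic library with reads, and without that library CAV3 was called lower (adjusted p = 0.00198). With so few reads, values of 0 do not establish a fall. GJC1, connexin 45, had 19 ischemic, 23 border zone and 33 healthy reads over a 1328 bp span, with overlapping libraries (-0.32 ± 1.41, adjusted p = 0.888). Of the other connexins only GJC1 passed the filter. Of the other potassium channel genes only KCNA5, the ultrarapid delayed rectifier, passed it, with 1.07, 1.67 and 4.74 RPKM in ischemic, 1.07, 0.272 and 0 RPKM in border zone and 2.09, 1.67 and 1.05 RPKM in healthy replicates. KCNA5 did not pass (0.39 ± 0.87, adjusted p = 0.771), on 22 reads in ischemic, 15 in border zone and 48 in healthy libraries. KCNJ2, the subunit of the classical inward rectifier, and the connexin 37 gene GJA4 are on unplaced scaffolds and listed at 0 in all libraries, from which nothing about their transcription can be read.

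**Figure D2:**
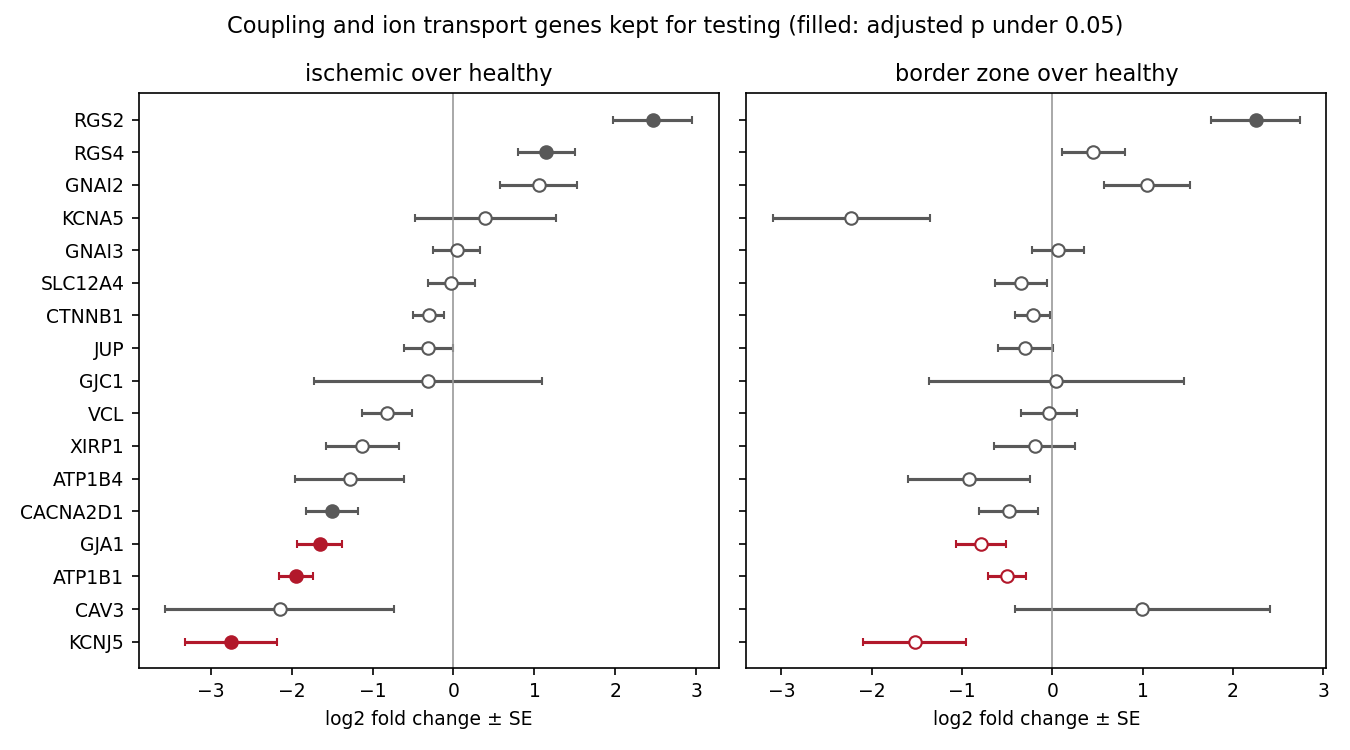
Log2 fold change ± SE of 17 of the 19 coupling and ion transport genes tested, for ischemic over healthy (left) and border zone over healthy (right), with GJA1, KCNJ5 and ATP1B1 in red and filled points for an adjusted p under 0.05. RGS2 lies at 2.46 and 2.25, and KCNJ5 at -2.75 and -1.52.

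Markers of several cell types differed between ischemic and healthy myocardium. Besides the fall of 11 of 15 heart muscle cell markers, with a median log2 fold change of -2.02, 4 of 6 endothelial markers and 2 of 6 fibroblast markers tested rose in ischemic against healthy myocardium, as did 6 of 8 macrophage and 3 of 4 neutrophil markers. Of all positions tested, 18.5% were called higher and 9.1% lower in this comparison. The summed RPKM of the 6 endothelial markers in the table was 16.8 to 37.6 in ischemic and 8.00 to 10.2 in healthy libraries, and that of the 6 fibroblast markers 12.2 to 18.5 and 8.67 to 11.6. For the 12 macrophage markers in the table it was 27.3 to 31.0 in ischemic and 2.76 to 5.15 in healthy libraries, and for the 6 neutrophil markers 14.1 to 30.5 and 0.0995 to 0.323. CD163 was at 0 in all libraries, and S100A8, S100A9, S100A12 and MMP9 at 0 in the 3 healthy ones. Of the smooth muscle markers 1 of 2 tested rose, as did 1 of 4 lymphocyte markers, none of the 2 atrial and 1 adipocyte and nerve markers tested, and the 1 erythroid marker. In border zone against healthy myocardium 0 of 15 heart muscle cell, 0 of 6 endothelial and 0 of 6 fibroblast markers were called. Their median log2 fold changes there were -1.05, 0.31 and 0.47, and 0.21% of positions were called lower. Higher there were 3 of 8 macrophage, 2 of 4 neutrophil and 1 of 4 lymphocyte markers, where 5.79% of positions were called higher. The part of cell composition in the values of the 3 members was not tested.

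GJA1, KCNJ5 and ATP1B1 were also set against the median of the 15 heart muscle cell markers of the same library, on the log2 scale. GJA1 stood at 0.50, -0.66 and 1.20 in ischemic and -0.77, 0.00 and -0.39 in healthy replicates relative to that median, so the groups overlapped (difference 0.73, exact permutation p = 0.3). ATP1B1 stood at -0.36, -2.26 and -0.23 in ischemic and -1.84, -1.14 and -1.20 in healthy replicates (difference 0.44, exact permutation p = 0.6). KCNJ5 stood at -4.41, -4.70 and -3.77 in ischemic and -4.43, -3.52 and -3.84 in healthy replicates (difference -0.36, exact permutation p = 0.5). For each of the 3 the difference in ischemic against healthy myocardium was within the spread between libraries in this setting, where the smallest possible p is 0.1. Ischemic replicate 2 set much of this spread for GJA1 and ATP1B1. Without it the differences were 1.24 for GJA1, 1.10 for ATP1B1 and -0.16 for KCNJ5. Over the libraries left out one at a time they ranged over 0.30 to 1.24 for GJA1, 0.081 to 1.10 for ATP1B1 and -0.62 to -0.16 for KCNJ5. In that library the markers were high while ATP1B1, at 2.96 RPKM, stayed between its values in ischemic replicates 1 and 3, and GJA1 and KCNJ5 were the highest of their group. The KCNJ5 difference also moved with the setting. Against the mean of the markers it was -0.69 (exact permutation p = 0.1). It was -0.88 with 0.01 RPKM added (exact permutation p = 0.2) and 0.94 with 1 RPKM added (exact permutation p = 0.3).

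In the border zone, ATP1B1 stood at -0.59, -1.12 and -0.95 relative to the marker median, over all healthy values (difference 0.51, exact permutation p = 0.1). GJA1 (difference 0.22, exact permutation p = 0.4) and KCNJ5 (difference -0.52, exact permutation p = 0.6) overlapped with their healthy values. Single libraries set the size of these differences. KCNJ5 lay at -0.0046 without border zone replicate 3 and -0.90 without border zone replicate 1, GJA1 at 0.029 without healthy replicate 1, 0.087 without border zone replicate 1 and 0.42 without healthy replicate 2, and ATP1B1 at 0.28 without healthy replicate 1. The adjusted value over these 6 comparisons was 0.6 for each.

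**Figure D3:**
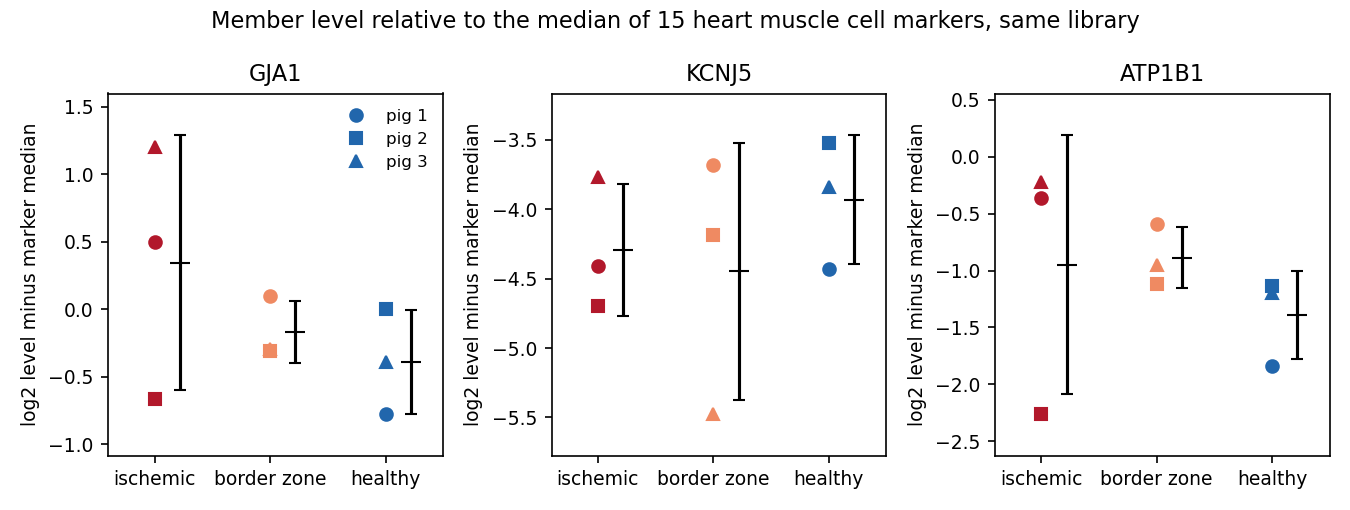
Log2 level of GJA1, KCNJ5 and ATP1B1 minus the median log2 level of 15 heart muscle cell markers in the same library, by zone, with the mean ± SD (n = 3) beside the points. Pig 2 is the lowest ischemic library for each gene, at -0.66 for GJA1, -4.70 for KCNJ5 and -2.26 for ATP1B1.

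ATP1B1 has 3 rows in the table. A row on an unplaced scaffold, with 206 bp of exon, held no read in any library. The other (NM_001001542_2, chromosome 4 from 89602602 to 89602832, plus strand) is a single stretch of 230 bp that starts 52179 bp beyond the end of the long row and on the other strand. The short row had 24.4, 26.7 and 29.5 RPKM in ischemic, 19.6, 12.4 and 5.96 RPKM in border zone and 27.1, 24.1 and 25.3 RPKM in healthy replicates. Its ischemic and healthy libraries overlapped, with means of 26.9 ± 2.54 and 25.5 ± 1.49 RPKM (SD, n = 3 each), while its border zone libraries lay under both. The log2 fold change was 0.07 ± 0.40 for ischemic against healthy (95% interval -0.83 to 0.98, limma adjusted p = 0.91), -1.16 ± 0.40 for border zone against healthy (adjusted p = 0.138) and 1.23 ± 0.40 for ischemic against border zone (adjusted p = 0.189). Behind them are 12, 7 and 6 reads in ischemic replicates, 16, 20 and 3 in border zone replicates and 17, 19 and 38 in healthy replicates, and their counting intervals are wide. Whether reads were counted by strand is not stated in the sources used, so reads of another transcript over this stretch cannot be told apart from those of ATP1B1.

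**Figure D4:**
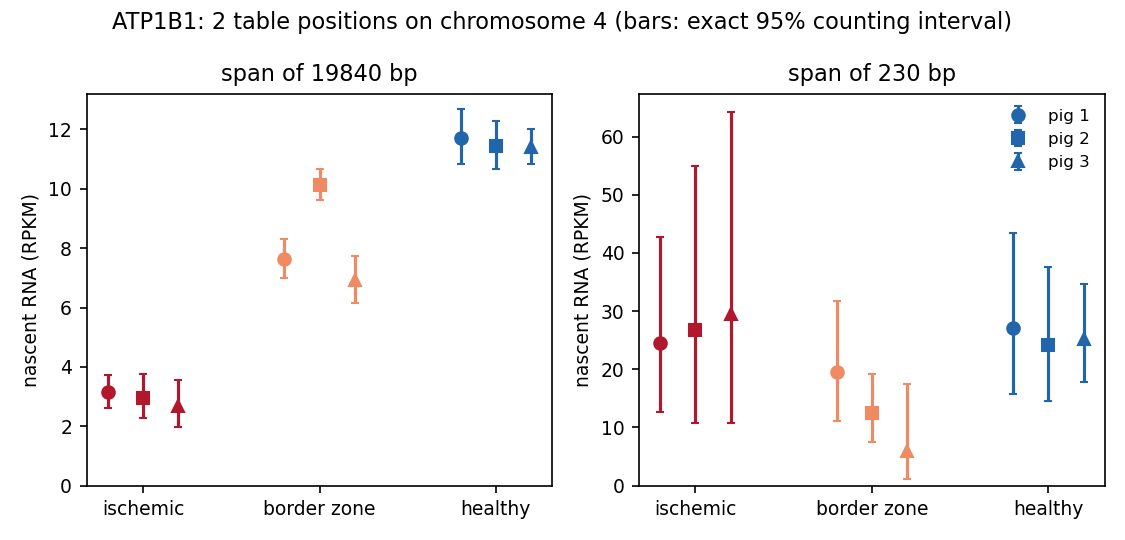
RPKM of the ATP1B1 rows of 19840 bp (left) and 230 bp (right) in each library, by zone, with exact 95% counting intervals that treat reads as independent. The long row lies at 2.68 to 3.14 RPKM in ischemic and 11.4 to 11.7 RPKM in healthy libraries, and the short row at 24.4 to 29.5 RPKM in ischemic and 24.1 to 27.1 RPKM in healthy libraries.

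Genes with the most similar pattern were found by the root mean square difference of log2(RPKM + 0.1) over the 9 libraries, after the mean of each gene was taken off, among 1986 other genes. This is a description of the same libraries and carries no test. Among the 3 genes nearest to GJA1 were IGF1R, the receptor of insulin-like growth factor 1 (0.136), and ADIPOR2, an adiponectin receptor (0.168), where the median gene differed by 0.985. Nearest to ATP1B1 were PROX1, a transcription factor (0.190), PALMD, palmdelphin (0.191), and GATA4, a cardiac transcription factor (0.216), against a median of 1.06. KCNJ5 had no match this close, with SLC2A4, the insulin-responsive glucose transporter GLUT4 (0.345), DPP4, a surface peptidase (0.378), and GOT1, cytosolic aspartate aminotransferase (0.420), against a median of 1.49. SLC2A4 averaged 0.559 ± 0.615 RPKM in ischemic, 1.39 ± 0.891 RPKM in border zone and 3.01 ± 1.06 RPKM in healthy myocardium (SD, n = 3 each). IGF1R averaged 0.871 ± 0.190, 1.97 ± 0.626 and 3.08 ± 0.509 RPKM in the same zones. ATP1B1 was 22nd nearest to GJA1 (0.311), and KCNJ5 323rd (0.637).

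No other gene of the table lies within 100 kb of GJA1 or KCNJ5, and near ATP1B1 only its own short row does. In the RefSeq annotation of Sscrofa11.1, used for neighbour names only, no annotated gene overlaps any of the 3. KCNJ1, another potassium channel gene, and FLI1 lie on one side of KCNJ5, and NME7 and BLZF1 on one side of ATP1B1.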

How the data were processed

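GRO-seq libraries of 9 samples were compared. The authors aligned reads to susScr3 with Bowtie, per the submitters' processing notes; the version, counting program, strand setting and duplicate handling are not stated in the sources used. The deposited RPKM values, per the file headers, cover 4882 positions, of which 4793 were named through Sscrofa11.1 RefSeq accessions. RPKM times span times library total gave whole reads within 0.02 for 100% of nonzero values. Read counts from 1 to 30 were multiples of 3 in 32.8% to 53.2% of cases per library, where an even spread gives 33.3%, so reads may not be independent molecules. Coordinates are as the table lists them, where end minus start equals the span.

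The 2384 positions averaging 0.5 RPKM or more were fitted on log2(RPKM + 0.1) with limma 3.58.1 (R 4.3.3), 3 groups, trend and robust eBayes, 2-sided, with Benjamini-Hochberg adjustment over all positions. The fit was tested on simulated data. Ratios used exact permutation tests (scipy 1.17.1, Python 3.11.15, numpy 2.4.6, pandas 2.3.3, matplotlib 3.10.9). Pigs pair the samples, per the labels: deviations from group means correlated with r of -0.037 to 0.179 (median 0.071) between zones of the same pig and -0.156 to 0.082 (median -0.034) between pigs. The deviations of a group cancel out, so the values between pigs are tied to those of the same pig and are no separate baseline. Members and lists were chosen with earlier results of these data known, and the ratios between genes after the data were seen. Named genes are the members, listed genes that passed the filter, and for each member the 3 genes of most similar pattern. Listed genes under the filter were named after their values were seen. Some genes that the rule names, and 1 of the 4 ratio comparisons, are not reported here.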

Additional observations from a re-analysis of the deposited data

How the results depend on the processing

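Leaving out 1 library at a time gave log2 fold changes of -1.81 to -1.49 for GJA1, -3.21 to -2.44 for KCNJ5 and -1.995 to -1.885 for ATP1B1 in ischemic against healthy myocardium, each still past the threshold. GJA1 and KCNJ5 have 1 row each, and a filter at 2 RPKM leaves out KCNJ5. The ATP1B1 row with the highest mean, the 230 bp row, gave 0.074 for ischemic against healthy and 1.23 for ischemic against border zone. ATP1B1 in ischemic against border zone stayed negative but missed the threshold without a filter and in the fit of these 2 groups alone (-1.44 each, adjusted p 0.0576 and 0.11), with quantile normalization (-1.60, adjusted p 0.0783) and with thinned reads (-1.37, adjusted p 0.0687), and lay at -1.56 to -1.285 without single libraries. In border zone against healthy, limma-voom gave -0.78 for GJA1 and -1.43 for KCNJ5, both past the threshold. With 1 RPKM added, KCNJ5 relative to the markers turned to 0.94 in ischemic and 0.16 in border zone against healthy, and KCNJ5 relative to GJA1 to 0.29.

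Of all positions, 659 were called in ischemic against healthy (217 lower), 346 with the 2 RPKM filter and 362 to 698 without single libraries. With median scaling 297 of 634 were lower, and with quantile normalization 251 of 500. In border zone against healthy 143 were called, with 48 at 1 RPKM added, 95 without a filter, 76 with the 2 RPKM filter, 90 with median scaling, 85 with quantile normalization, 296 by limma-voom, 89 with thinned reads and 36 to 174 without single libraries. With median scaling 13 of the 90 were lower, against 5 of 143. In ischemic against border zone 27 were called, with 10 at 1 RPKM added, 3 without a filter, 8 with median scaling, 5 with quantile normalization, 1 in the fit of these 2 groups alone, 92 by limma-voom (65 lower), 5 with thinned reads and 0 to 39 without single libraries.

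Of the 19 listed genes tested, 8 were called in ischemic against healthy, with 4 under the 2 RPKM filter and 5 to 10 without single libraries. In border zone against healthy 1 was called, with 0 at 1 RPKM added, without a filter or in the fit of these 2 groups alone, 2 with pig as a block, 4 by limma-voom and 0 to 1 without single libraries. With median scaling or quantile normalization the count stayed at 1, but the gene called was lower, and RGS2 missed the threshold. In ischemic against border zone 1 was called, with 0 without a filter, with quantile normalization, in the fit of these 2 groups alone, with thinned reads or with the row of highest mean, 2 by limma-voom and 0 to 2 without single libraries. With pig as a block 752, 205 and 29 positions were called in the 3 comparisons in the same order, and no call of a member changed. Why these counts move was not tested. Depth limits KCNJ5 in ischemic libraries, where 3 reads correspond to 0.0574, 0.107 and 0.139 RPKM in replicates 1 to 3.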
